A study of Mus musculus with 4 samples.

Results

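MAGE proteins, named after melanoma antigens, and the 2 Praja ubiquitin ligases that work with them were followed in HT-22. HT-22 is a cell line of mouse hippocampal origin, described as neuronal, that grows without limit. The genes were taken by symbol: Maged1, Maged2, Mageh1, Magee1, Magel2, Ndn, Pja1 and Pja2. Of these 8 genes, 5 had a row in the table of 25050 genes, and all 5 passed the minimum of a mean of 10 normalised reads over the libraries and were among the 15540 genes tested. Mageh1, Magel2 and Ndn had no row by symbol or by Ensembl identifier and were not analysed here. RNA was sequenced from 2 libraries of wild type cells, called controls here, and 2 of cells with Nsmce1 overexpression, all at passages 21 to 24. Elsewhere the study's text gives the controls as uninduced cells of an inducible Nsmce1 system. What drives the added Nsmce1, and whether each population is 1 clone, is not given in these sources. Nothing says that the libraries of a group are separate cultures, so p-values measure the spread between these libraries only.

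MAGE proteins share a folded region, the MAGE homology domain, with which they bind RING ubiquitin ligases and steer the ligase to its substrates. The A, B and C subfamilies are mostly silent outside the germline and some tumours, while the D, E, H and L subfamilies and necdin are used in many tissues, the brain among them. Nsmce1, the gene overexpressed here, encodes a RING protein of the SMC5/6 complex, and its own MAGE partner there is Nsmce3. Maged1 was found as a partner of Pja1 and of the p75 neurotrophin receptor, and Magel2 works with the ligase Trim27 on endosomes. Pja2 marks regulatory subunits of protein kinase A for destruction.

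Maged1, Maged2, Magee1, Mageh1 and Pja1 lie on the X chromosome, Magel2 and Ndn on chromosome 7 and Pja2 on chromosome 17. A sequence feature that the choice of genes did not use is shown here because it occurs in both D genes. RefSeq promoters (GRCm38.p6, 250 bases before to 50 after a start) were at hand for 7 of the 8 genes. Pja1 had none, so its promoter was not examined. The palindrome GCGCATGCGC, the recognition sequence of the transcription factor NRF1, stood in a promoter of Maged1 and in a promoter of Maged2, where it occurred at 2 places. Its 10 letters are found on either strand in 0.971% of the 32851 promoters in the table, and it is the longest palindrome that promoters of both genes share. Its 8-letter core GCATGCGC, which lies within it, was present in 2.71% of all promoters, and among these genes also in that of Ndn. Maged2 had more than 1 promoter in the set, and those with starts further upstream held neither the palindrome nor the core. The windows of 30 bases below run 5′ to 3′ on the strand of the gene, with the match in capitals.
Maged1, chrX:94542068-94542097, minus strand: gtgatctgctGCGCATGCGCggcgcgtcca
Maged2, chrX:150813158-150813187, minus strand: cgtggacattGCGCATGCGCtttatgtata
Maged2, chrX:150813006-150813035, minus strand: tgcagaagacGCGCATGCGCactctaagcc
Ndn, chr7:62348244-62348273, plus strand: cttcccaacacGCATGCGCaatatcgcatc
The motif was chosen after these promoters had been read, and a match of letters does not show binding. The longest run of any kind in promoters of both D genes was GAGCTGCCGCGCTGGCA, which 2 of the 32851 promoters hold, 1 of each gene. The cyclic AMP response element TGACGTCA, present in 1.79% of all promoters, was in 0 of the promoters of these 7 genes. The GC box GGGCGG, present in 35.7% of all promoters, was in a promoter of each of them except Maged1.

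The 5 measured genes covered a wide range of levels, given in normalised reads, the authors' read numbers after scaling each library. In bulk RNA, fewer cells with a transcript and less of it per cell cannot be told apart. Per kilobase of exon, with lengths from GENCODE M21, Maged1 gave 4330 and 4564 normalised reads in the controls and 4313 and 4588 under overexpression. That mean level was above that of 97.9% of the tested genes with a known length. Pja2 came next, with 926 and 883 normalised reads per kilobase in the controls and 966 and 1015 under overexpression. Maged2 gave 926 and 714 against 723 and 657, so its range over the libraries overlapped that of Pja2. Within a library, Maged2 was level with Pja2 in wild type replicate 1, at 926 each, and below it in the others. Pja1 spanned 125 to 472 normalised reads per kilobase, and the narrow range of Magee1, 134 to 149, lay inside it. The order of those 2 genes therefore depended on the library. Maged1 stood 4.68 to 6.98 times above Maged2 per kilobase within a library.

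**Figure D1:**
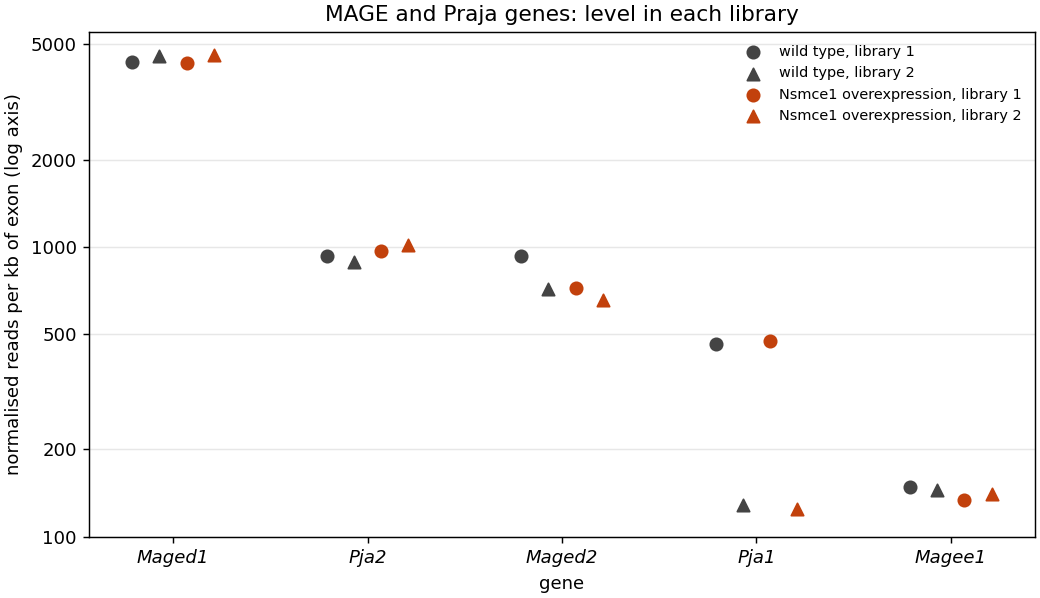
Normalised reads per kilobase of exon (log axis) of the 5 measured genes, 1 point per library, with wild type in grey, Nsmce1 overexpression in orange, circles for the libraries numbered 1 and triangles for those numbered 2. Maged1 lies at 4313 or above in every library, and Pja1 is the gene whose circles and triangles part, at 462 and 472 against 129 and 125.

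The comparison asked whether these genes differ between overexpressing and wild type cells. The overexpressed gene itself checks the labels: Nsmce1 gave 1108 and 1206 normalised reads in the controls and 17851 and 16525 under overexpression. None of the 5 measured MAGE and Praja genes passed the test (limma, Benjamini-Hochberg adjusted p under 0.05), and 0 had an unadjusted p under 0.05. Over all tested genes 0.193% passed, 0.103% higher and 0.0901% lower in overexpressing cells, and 7.92% had an unadjusted p under 0.05. The groups did not overlap for 2 of the 5 genes, Pja2 (higher) and Magee1 (lower), where 39.1% of all tested genes did not overlap, 20.8% higher and 18.3% lower. The 5 log2 fold changes ran from -0.24 to 0.13, with a median of -0.0084 beside 0.0054 for all tested genes. That median of 5 was -0.016 with a common median, -0.052 with voom, and -0.12 (without wild type replicate 2) to -0.037 (without wild type replicate 1) with 1 library left out. Medians by chromosome were -0.0062 for the X and -0.026 for chromosome 17.

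Maged1, an adaptor also known as NRAGE that acts in neurotrophin signalling and cell death, gave 18841 and 19858 normalised reads in the controls and 18764 and 19963 under overexpression. The overexpressing libraries lay just outside the wild type values on either side, and the libraries numbered 1 were the lower ones in both groups. Overexpressing cells stood at 1.0 times the control level, and the 95% interval of that ratio reached from 0.882 to 1.13 (limma adjusted p = 0.999). The log2 fold change was 0.00086 and took the other sign under 2 other scalings, a common median and voom.

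Maged2, a relative that in the kidney supports salt transporters, gave 2999 and 2313 normalised reads in the controls and 2341 and 2128 under overexpression. Wild type replicate 1 was high and the other 3 libraries lay close together, so the groups overlapped. On the log2 scale the difference was -0.24, between limits of -0.57 and 0.097 (limma adjusted p = 0.723). It was -0.051 without wild type replicate 1 and -0.43 without wild type replicate 2. A stretch of Maged2 is shared with its neighbour in the family Tro, at 1.49% of the 50-base words of its transcripts, while Tro itself had at most 5.03 normalised reads. A small nucleolar RNA gene inside Maged2, Gm24907, had at most 3.77.

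Magee1, a protein of the dystrophin-associated complex, gave 528 and 514 normalised reads in the controls and 475 and 500 under overexpression. Both overexpressing libraries were below both wild type libraries. The ratio to the controls was 0.936, between limits of 0.772 and 1.13 (limma adjusted p = 0.862), so the difference did not pass despite the separated groups. On the log2 scale it was -0.096, or -0.059 without overexpression replicate 1.

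Pja2, the more abundant Praja ligase, gave 6167 and 5881 normalised reads in the controls and 6433 and 6759 under overexpression. Both overexpressing libraries lay above both wild type libraries. The fold change of 1.09 had an interval of 0.965 to 1.24 (limma adjusted p = 0.722) and did not pass.

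**Figure D2:**
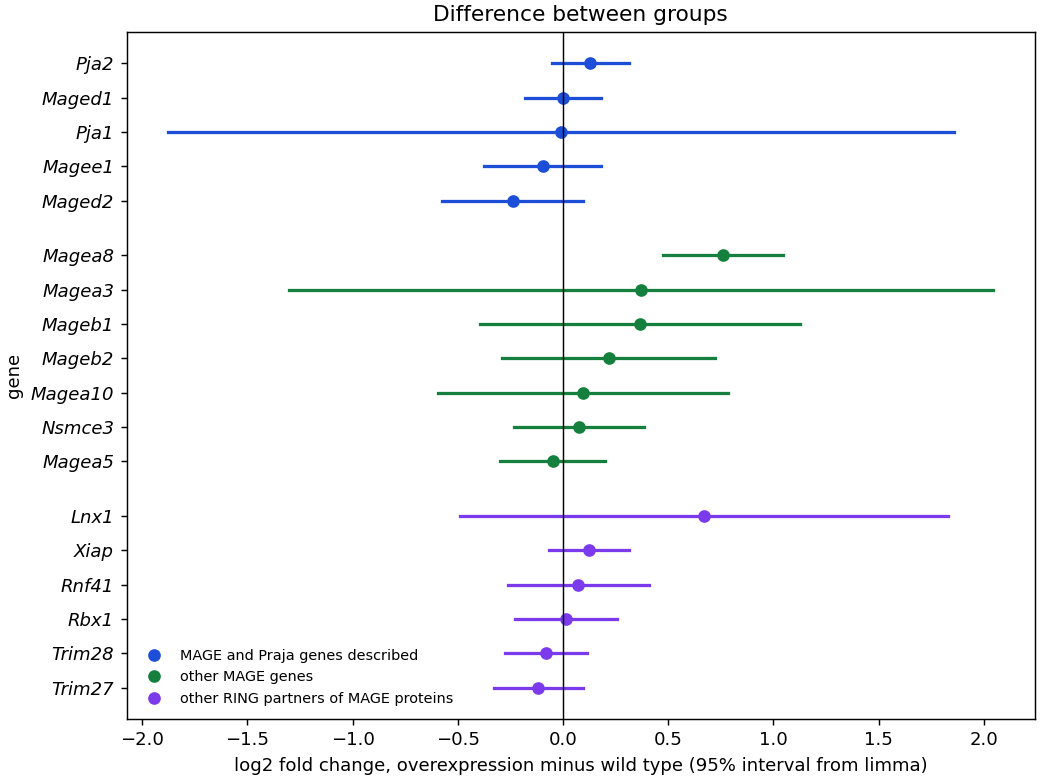
Log2 fold changes, overexpression minus wild type, with 95% intervals from limma, for the 5 genes described (blue), the other tested MAGE genes except Magea2, which was at 0 in 2 libraries (green), and other RING proteins listed as MAGE partners except Nsmce1 (violet). All blue and violet intervals span 0, Magea8 is the 1 gene whose interval does not, and that of Pja1 runs from -1.88 to 1.86.

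Pja1, the Praja ligase known to bind Maged1, had the widest spread of the 5 genes. It gave 1537 normalised reads in wild type replicate 1 and 429 in wild type replicate 2, and 1570 and 415 in overexpression replicates 1 and 2. The level was thus high in the library numbered 1 and low in the library numbered 2 of each group, while like-numbered libraries of the 2 groups were close. The groups overlapped, and their ratio was 0.994, between limits of 0.272 and 3.63 (limma adjusted p = 0.999). The test therefore does not separate an equal Pja1 level from one more than 3 times higher or lower. With 1 library left out, the log2 fold change took either sign: 0.91 without wild type replicate 1, 0.95 without overexpression replicate 2, -0.93 without wild type replicate 2 and -0.97 without overexpression replicate 1. None of the 4 fits called it (limma adjusted p from 0.761 to 0.954).

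The gap in Pja1 within a group was far larger than counting error. It rested on 1222 and 407 whole reads in wild type, a 3.59-fold difference after scaling with a 95% exact interval of 3.20 to 4.02, and on 1570 and 568 reads in overexpressing cells, a 3.79-fold difference with an interval of 3.44 to 4.18. These intervals cover counting error only. For the other 4 genes the same ratio lay between 0.940 and 1.30. The 10 nearest measured genes on the X chromosome, 5 on each side of Pja1 with a mean of at least 100 normalised reads, had ratios from 0.623 to 1.87. No 50-base word of the Pja1 transcripts occurs in a transcript of another gene in GENCODE M21, and no annotated gene overlaps it. With Pja2 nearly even across libraries, the ratio of Pja2 to Pja1 per kilobase was 2.0 and 2.05 in the libraries numbered 1 and 6.85 and 8.14 in those numbered 2.

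Such gaps were rare over the table. Of 11650 genes with a mean of at least 100 normalised reads, 46 were at least 3-fold apart between the wild type libraries and 46 between the overexpressing ones. In both groups at once, 7 genes were that far apart in the same direction, Pja1 among them, and 7 in opposite directions. The genes that shared the direction of Pja1 were Dnm3os, Lrch4, Usp49 and Zfp180, while Pcdhgb5 and Zfp46 were higher in the libraries numbered 2. Symbols that start with Gm and a digit or end in Rik were left out of the search for like patterns. Among the other tested genes, Usp49, a deubiquitinase gene, had the pattern nearest to that of Pja1. Its root mean square difference was 0.12 in centred log2 values over the 4 libraries. It gave 1792 and 492 normalised reads in the controls and 1791 and 575 under overexpression. These genes were picked after the values of Pja1 had been seen. By the rule set for the most abundant of the 5 genes, Bnip2, Gsk3a and Dera were nearest to Maged1, with differences of 0.0025 to 0.0042. With 4 libraries and a nearly flat profile such likeness is a description only.

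**Figure D3:**
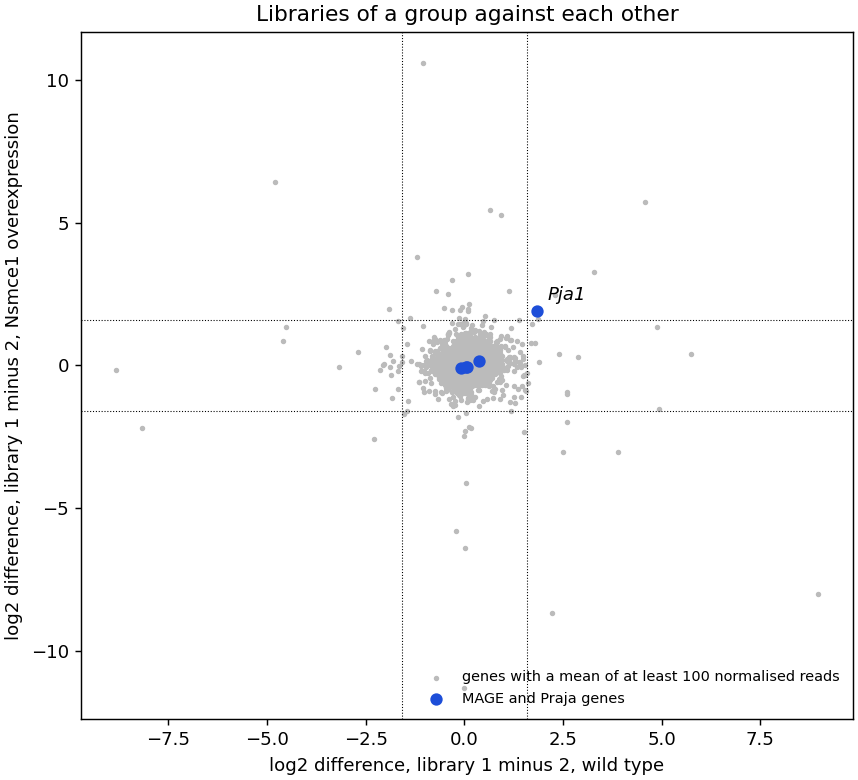
Log2 difference between the libraries numbered 1 and 2, in wild type (horizontal) and in overexpressing cells (vertical), for 11650 genes with a mean of at least 100 normalised reads (grey) and for the 5 MAGE and Praja genes (blue), with dotted lines at 3-fold. Pja1 lies beyond the lines in both groups, and the other 4 genes lie near the centre.

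Among the other MAGE genes, 13 had a row and 8 were tested, and 0 passed. Their median log2 fold change was 0.16, with 6 above and 2 below 0 (7 and 1 with voom or without overexpression replicate 1, 5 and 3 without overexpression replicate 2), beside 7967 above and 7573 below 0 over all tested genes. Nsmce3, the MAGE subunit that pairs with Nsmce1, gave 601 and 720 normalised reads in the controls and 697 and 689 under overexpression (log2 fold change 0.07, interval -0.23 to 0.38). Of the 9 genes of the SMC5/6 complex, the 1 that passed was Nsmce1, which was raised by design. Smc5, the most abundant of the other 8, stood at a log2 fold change of 0.11.

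Transcripts of the A and B subfamilies, germline genes in the adult, were present in HT-22. Magea5 was the most abundant of them, at 1303 and 1353 normalised reads in the controls and 1205 and 1369 under overexpression. Magea8 gave 557 and 645 against 993 and 1038, and both overexpressing libraries were above both wild type libraries. The ratio was 1.69, between limits of 1.39 and 2.06, and did not pass over all genes (limma adjusted p = 0.114). Reads of the 2 genes can be split: 34.6% of the 50-base words of Magea8 also occur in Magea5, and 41.5% occur in some other gene. The values of both genes are therefore uncertain. Mageb1 and Mageb2 share even more, with 90.9% of the words of Mageb1 in Mageb2, and had at most 63.0 and 114 normalised reads. Magea2 was at 0 in wild type replicate 2 and overexpression replicate 1 and had 31.4 and 26.3 normalised reads in the other libraries. Most of its words also occur in other genes (58.3%).

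**Figure D4:**
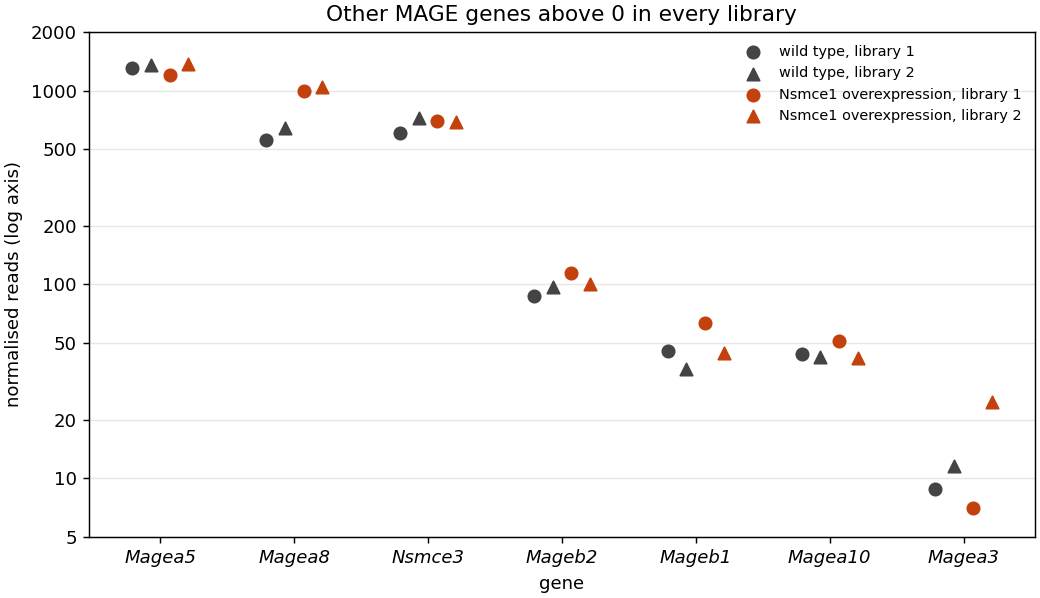
Normalised reads (log axis) of the other MAGE genes that were tested and above 0 in every library, 1 point per library, with colours and shapes as for the 5 genes. Magea8 is the gene whose grey and orange points stand clearly apart, at 557 and 645 against 993 and 1038.

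The partners and pathways of these proteins were read from lists of named genes. Of 8 other RING proteins listed as MAGE partners 7 were tested, and the 1 that passed was Nsmce1, which was raised by design. Trim28 gave 8839 and 8753 normalised reads in the controls and 7908 and 8739 under overexpression, and the remaining tested ones, Trim27, Lnx1, Xiap, Rbx1 and Rnf41, had log2 fold changes from -0.12 to 0.67. Of 12 genes of the WASH and retromer machinery on endosomes and its ubiquitin enzymes, where Magel2 and Trim27 act, 0 passed, with 5 above and 7 below 0 (median -0.014). This balance turned to 7 above and 5 below without wild type replicate 1 (median 0.013) or overexpression replicate 1 (0.0081), and to 6 and 6 without wild type replicate 2 (0.0084). Usp7, the deubiquitinase bound to that ligase, had the smallest p of that list. It gave 5700 and 5405 normalised reads in the controls and 6582 and 6831 under overexpression (0.27 on the log2 scale, limma adjusted p = 0.418). With the median of each chromosome removed, Usp7 stood at 0.11 (adjusted p = 0.806). Vps35, the retromer core, had the most normalised reads of the list without correction for length, and stood at -0.028.

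Among 17 genes of protein kinase A, its anchors and MOB1, the pathways in which Pja2 acts, 16 were tested and 0 passed. Of these 13 lay above and 3 below 0, with a median log2 fold change of 0.057, while quantile normalization gave 11 above and 5 below (median 0.030). With 1 library left out, 10 (without overexpression replicate 2) to 14 (without overexpression replicate 1) lay above 0. For comparison, 7967 lay above and 7573 below 0 over all tested genes, and 0 of the 16 had an unadjusted limma p under 0.05. Prkar1a, the main regulatory subunit here, gave 11848 and 12331 normalised reads in the controls and 12644 and 12802 under overexpression (log2 fold change 0.07). Akap11, an anchor protein, had the smallest p, at a log2 fold change of 0.15 and an interval of -0.051 to 0.36. Without wild type replicate 2 Akap11 stood at 0.096, and without wild type replicate 1 Prkar1a stood at 0.045, or at 0.11 with chromosome medians removed. The neurotrophin list had 13 of 16 genes in the table, 9 of them tested, and 0 passed (3 above and 6 below 0, median -0.093). The median was -0.14 without wild type replicate 1, and -0.046 without wild type replicate 2 and -0.045 without overexpression replicate 2, each with 4 above and 5 below. Ngfr and Bex1 had no row and were not analysed here, and the receptors Ntrk2 and Ntrk3 had at most 2.19 and 1.46 normalised reads. The p75-binding protein gene Bex3, on the X chromosome, gave 3427 and 3416 against 3206 and 3208 (log2 fold change -0.093), and the kinase gene Irak1 stood at -0.15. Irak1 lay between -0.25 (without wild type replicate 1) and -0.046 (without wild type replicate 2) with 1 library left out, at -0.085 without overexpression replicate 1.

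Transcription factors bound by Maged1 or necdin had 6 of 11 genes tested and 0 passed, with 3 above and 3 below 0 (1 and 5 without wild type replicate 1, 2 and 4 without overexpression replicate 1). Dlx1, a homeobox gene of forebrain neurons, gave 329 and 205 normalised reads in the controls and 355 and 384 under overexpression (log2 fold change 0.50, interval -0.071 to 1.08), and Trp53 stood at -0.16. Dlx1 stood at 0.16 without wild type replicate 2 and 0.84 without wild type replicate 1. Trp53 ran from -0.032 (without overexpression replicate 1) to -0.29 (without overexpression replicate 2), with -0.076 without wild type replicate 2 and -0.25 without wild type replicate 1. In the imprinted region that holds Ndn and Magel2, 5 of 6 other genes had a row, all 5 were tested and 0 passed. Mkrn3, itself a RING protein gene, gave 126 and 124 normalised reads in the controls and 126 and 177 under overexpression, and Peg12 gave 301 and 350 against 301 and 291. Ube3a, the ligase gene read from the maternal copy in neurons, gave 1825 and 1634 against 1980 and 1872. Snrpn gave 0 and 7.37 against 49.0 and 29.9 (limma adjusted p = 0.424, unadjusted p = 0.0106), and Snhg14 gave 59.1 and 46.3 against 77.0 and 81.8. In the annotation Snrpn and Snhg14 both overlap Gm38393 on their own strand, and Snhg14 runs opposite to Ube3a. Whether strand separated such reads when they were counted is not known here.

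The libraries held 25787452 to 44602989 whole reads. Of 10 markers of mature neurons 5 had a row, and their sum was 589 to 643 normalised reads in wild type and 471 to 628 in overexpressing cells, nearly all from Tubb3. Syp, Syt1 and Slc17a7 had at most 17, 8.80 and 5.03, and Nefm was at 0 in 3 libraries. Rbfox3, Map2, Snap25, Gad1 and Nefl had no row and were not analysed here. The 7 fibroblast genes, led by Col1a2, summed to 413500 to 479042 in wild type and 391199 to 451170 in overexpressing cells. In every library this sum was far above that of the neuron markers. The markers listed here thus do not bear out the description of the line as neuronal. For 2 of the 7 fibroblast genes the groups did not overlap, where 39.1% of all tested genes did not. Col3a1 gave 81869 and 68553 against 64349 and 52554 (limma adjusted p = 0.560). Postn gave 1079 and 710 against 624 and 407 (limma adjusted p = 0.546). The summed astrocyte markers, almost all Slc1a3, were 3021 to 3368 in wild type and 4261 to 4556 in overexpressing cells, while Aldh1l1, the other tested marker of that list, gave 57.8 and 65.3 against 14 and 12.4 (limma adjusted p = 0.118). Those of oligodendrocytes and their precursors, almost all Cspg4, were 5396 to 5959 against 5204 to 5341, and those of microglia, almost all Tmem119, 1900 to 2250 against 1539 to 1655. The defining markers Gfap, Mog, Cx3cr1, Ptprc and Csf1r had at most 7.54. Their part in the values above was not tested.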

How the data were processed

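Trizol extraction, a TruSeq RNA kit and BGISEQ-500 sequencing are named in the labels' protocols. HISAT, Cufflinks and mm9 are named in the submitters' processing notes without versions; gene counting, annotation and use of strand are not given in the sources used here. In the deposited table the unit is log2 of normalised reads plus 1: after undoing the log2, every value of a library was a whole multiple of 1 step (tolerance 0.001 read). Columns were matched to samples by name. Genes were matched to GENCODE M21 (GRCm38) by identifier, for 24952 of 25050 rows. Coordinates of whole genes are left out because the builds differ, and those of the promoter windows refer to GRCm38.p6, not to mm9. limma 3.58.1 (R 4.3.3) with a mean-variance trend and group as the only term was fitted to the deposited log2 values of the 15540 genes with a mean of at least 10 normalised reads. Fold changes refer to log2(value + 1), which understates low genes. P-values are two-sided and Benjamini-Hochberg adjusted over all tested genes. The smallest exact permutation p for 2 against 2 libraries is 0.333, so calls rest on limma's pooled variance (6.10 total degrees of freedom). The steps were tested on simulated data. Members and lists were chosen with earlier results of these data known. Named were the members, Nsmce1, every measured gene of lists with at most 5, and otherwise the called gene, the smallest p and the highest mean; others were named for their role after their values were seen. Reads shared between genes were gauged with 50-base words of GENCODE transcripts on either strand. Alternatives were other pseudocounts, filters, scalings and variance models, voom on recovered reads, the replicate number as a block, and each library left out. Those for list counts and for genes named from lists were chosen after seeing the data.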

Additional observations from a re-analysis of the deposited data

How the results depend on the processing

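In all 16 alternatives, 0 of the 5 measured genes were called. Over all genes, 30 were called in the comparison as reported, 16 without a filter on low values, 18 after quantile normalization, 9 in limma without a trend, 72 with a robust prior, and 2 to 75 with 1 library left out (2 without wild type replicate 1, 9 without wild type replicate 2, 51 without overexpression replicate 1, 75 without overexpression replicate 2); the cause was not tested. A group with 1 library is there assumed to vary like the other. With the replicate block, 60 genes were called and Pja1 kept a log2 fold change of -0.0084 while its SE went from 0.767 to 0.0987, as the block term fits the gap between its libraries. Over 11650 genes the deviations of like-numbered libraries from their group mean correlated with r = 0.0059, and the labels do not say what a number marks, so the numbers were not used to pair libraries; what like-numbered libraries share was not tested. The log2 fold change of Maged1 changed sign with a common median (-0.0071), with voom (-0.0052) and within -0.044 to 0.046 with 1 library left out. That of Pja1 ran from -0.97 to 0.95 with 1 library left out, that of Nsmce3 from -0.056 (without wild type replicate 1) to 0.21, that of Magea5 from -0.14 to 0.044 (without overexpression replicate 1) and that of Vps35 from -0.091 to 0.036, with 0.027 and 0.036 the values above 0. Vps35 stood at 0.00021 with chromosome medians removed. Leaving out 1 library could not change the sign of Magee1, Pja2 or Magea8, whose groups did not overlap. Maged2 and Magee1 lay below 0 and Pja2 above 0 in every alternative. Magea8 lay above 0 in each, with adjusted p from 0.0563 to 0.405. Low reads limit Magea2, Magea3, Snrpn and Lnx1.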
